A study of Mus musculus with 22 samples.

Results

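The genes described here make and run the enteroendocrine cells of the gut: the fate regulators Neurog3 and Neurod1, the granule proteins Chga and Chgb, the peptide hormone genes Gip, Cck, Sct, Sst and Ghrl, and Tph1, the enzyme of serotonin synthesis. They were chosen by name, as 10 of the 52636 genes of a single expression table, and were followed in all 22 libraries of mouse duodenal organoids. All 10 were measured in every library and all 10 passed the filter on low values in each comparison.

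The organoids, miniature epithelia grown from crypt stem cells, came from wild type adult mice of the outbred CD1 strain, and each of 4 organoid lines came from 1 mouse. Lines 1, 2, 3 and 4 each gave 1 untreated library, and 6 groups of 3 libraries, 1 each from lines 1, 2 and 4, were exposed to cold atmospheric plasma (CAP), a helium jet that leaves reactive species in the culture medium. In direct CAP the jet was held over the culture at day 1 and the medium was changed 30 min or 24 h later. In indirect CAP the organoids were given medium from another culture treated with the jet, and in PAM (plasma-activated medium) they were given medium treated without organoids, in both cases from day 1 or from day 2. In the study's methods all 4 of these groups were exposed for 24 h and shared 1 endpoint. Groups from day 1 had fresh medium after the exposure, while for groups from day 2 the exposure ended at the endpoint. The medium given from day 2 had been treated at day 1. The deposited labels state 0.5 h where medium was given from day 1 and 24 h where it was given from day 2. Line 3 occurs among the untreated libraries alone, and lines 3 and 4 were at passage 4 per the labels while lines 1 and 2 were at passage 12 and 14. Organoids of this kind hold epithelium without the nerves, blood vessels and connective tissue of the duodenum.

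Enteroendocrine cells are scattered, hormone-secreting cells that arise from the same crypt stem cells as enterocytes, goblet, Paneth and tuft cells. Escape from Notch signalling lets a progenitor express Atoh1 and then, for a short time, Neurog3, which commits it to the endocrine fate, and Neurod1 acts after Neurog3 as the cell matures. Mature cells store their products in dense-core granules rich in chromogranins, and different kinds of cell make GIP, cholecystokinin, secretin, somatostatin, ghrelin or, in enterochromaffin cells, serotonin. A bulk library sums all cells, so a lower value from fewer cells of a type and one from less RNA per cell cannot be told apart.

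A value here is a read count scaled by the authors to 20 M reads per library (M for mega, the unit CP20M) and not divided by gene length. Depth, estimated from the spacing of the low values, lay between 19.8 and 28.7 M reads (median 22.6), so a value of 10 stands for about 10 reads. The labels call the cells stem cells of the epithelium, and the libraries carried markers of stem cells and of each differentiated epithelial type. All 7 epithelial markers were detected (highest Krt8, up to 59104), while 5 of 6 fibroblast and 3 of 4 endothelial markers stayed under 10 in all 22 libraries. Of 6 leukocyte markers 5 reached 10 (Csf1r up to 334), and their summed value was 410 to 457 in untreated and 349 to 498 in treated libraries. Libraries of 1 line resembled each other across treated groups, with a correlation of deviations from the group means over 0.1 in 45 of 45 pairs. The untreated libraries of lines 1 and 2 did not follow this. That of line 1 correlated at a median of 0.08 with treated libraries of line 1 and 0.54 with those of line 2, and that of line 2 at 0.13 with line 2 and 0.35 with line 1, so their line labels are in doubt. The main fit of every comparison left out the line, since the study's methods name no line block. The value with the line as a block is added where it changes a call. Against untreated libraries the block rests on these doubtful labels. Differences were tested with limma, with moderated variances that follow a trend in level, on log2(value + 1), the scale of every fold change given. A gene counted as called, or past the threshold, where p after Benjamini-Hochberg adjustment over all genes was under 0.01 and the log2 fold change reached 1 in either direction.

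In untreated organoids the members covered a wide range of levels. Per kilobase of exonic length, Gip had the highest mean at 588 ± 194 (SD, n = 4), followed by Chgb at 509 ± 120, Neurog3 at 213 ± 21.2, Chga at 188 ± 74.3 and Cck at 137 ± 92.3. Sst at 87.7 ± 95.7, Sct at 86.0 ± 32.3 and Ghrl at 76.0 ± 14.8 per kilobase came next by mean, with Neurod1 at 27.8 ± 5.21 and Tph1 at 13.5 ± 4.91 below them. Relative to the mean, the spread between untreated lines was smallest for Neurog3 and largest for Sst, whose untreated values were 19 and 18 in lines 1 and 2 and 52 and 164 in lines 3 and 4. The ranges over lines of Gip (415 to 865) and Chgb (392 to 667) overlap on this scale, so their order is not resolved. Those of Neurog3, Chga, Cck and Sst overlap too, and Cck and Sst also overlap Sct and Ghrl. Sct overlaps Chga and Ghrl, and Sst, down to 25.0, overlaps Neurod1 (22.7 to 34.8). The order of neighbours among these is not resolved either.

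Promoter windows of 3 members that carry the results below, the regulator Neurog3 and the granule genes Chga and Chgb, are shown first, Neurog3 as the member with the largest change and Chga and Chgb as granule genes that varied together. Each window runs from 250 bases before to 50 bases after the RefSeq gene start on GRCm38.p6 and is read 5′ to 3′ on the plus strand of chr10:62132840-62133139, chr12:102554691-102554990 and chr2:132781392-132781691. Capitals mark 3 motifs searched on both strands, the E-boxes CAGATG and CAGCTG, which basic helix-loop-helix factors such as NEUROG3 and NEUROD1 can bind, and TGACGTCA, the full cyclic AMP response element.
Neurog3: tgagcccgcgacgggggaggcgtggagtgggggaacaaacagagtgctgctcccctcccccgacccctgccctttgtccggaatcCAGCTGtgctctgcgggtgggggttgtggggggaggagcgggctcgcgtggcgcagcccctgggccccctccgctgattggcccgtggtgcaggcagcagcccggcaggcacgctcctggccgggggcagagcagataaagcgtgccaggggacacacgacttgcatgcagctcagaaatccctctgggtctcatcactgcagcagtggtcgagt
Chga: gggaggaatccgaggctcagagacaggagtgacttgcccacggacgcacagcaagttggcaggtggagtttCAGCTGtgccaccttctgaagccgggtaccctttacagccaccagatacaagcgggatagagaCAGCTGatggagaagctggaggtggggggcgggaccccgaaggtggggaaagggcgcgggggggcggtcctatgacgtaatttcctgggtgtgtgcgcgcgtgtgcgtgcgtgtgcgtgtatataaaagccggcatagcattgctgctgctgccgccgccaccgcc
Chgb: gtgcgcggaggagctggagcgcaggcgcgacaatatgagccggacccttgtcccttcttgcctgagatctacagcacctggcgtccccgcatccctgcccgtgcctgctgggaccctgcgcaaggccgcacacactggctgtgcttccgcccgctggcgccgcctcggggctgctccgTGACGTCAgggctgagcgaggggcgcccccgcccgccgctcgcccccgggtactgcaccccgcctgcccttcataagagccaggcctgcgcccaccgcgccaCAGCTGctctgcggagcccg
The Neurog3 window held 1 CAGCTG (bases -165 to -160 from the start), Chga held 2 (-179 to -174 and -116 to -111), and Chgb held 1 after the start and 1 TGACGTCA (-72 to -65). The window of Sst on chromosome 16 also held TGACGTCA (-48 to -41). The windows of Neurod1 and Tph1 held none of the 3 letter strings. Among all 32851 mouse promoter windows of this length, 17.2% held CAGATG, 16.3% CAGCTG and 1.79% TGACGTCA, and the motifs did not overlap in the windows shown.

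**Figure D1:**
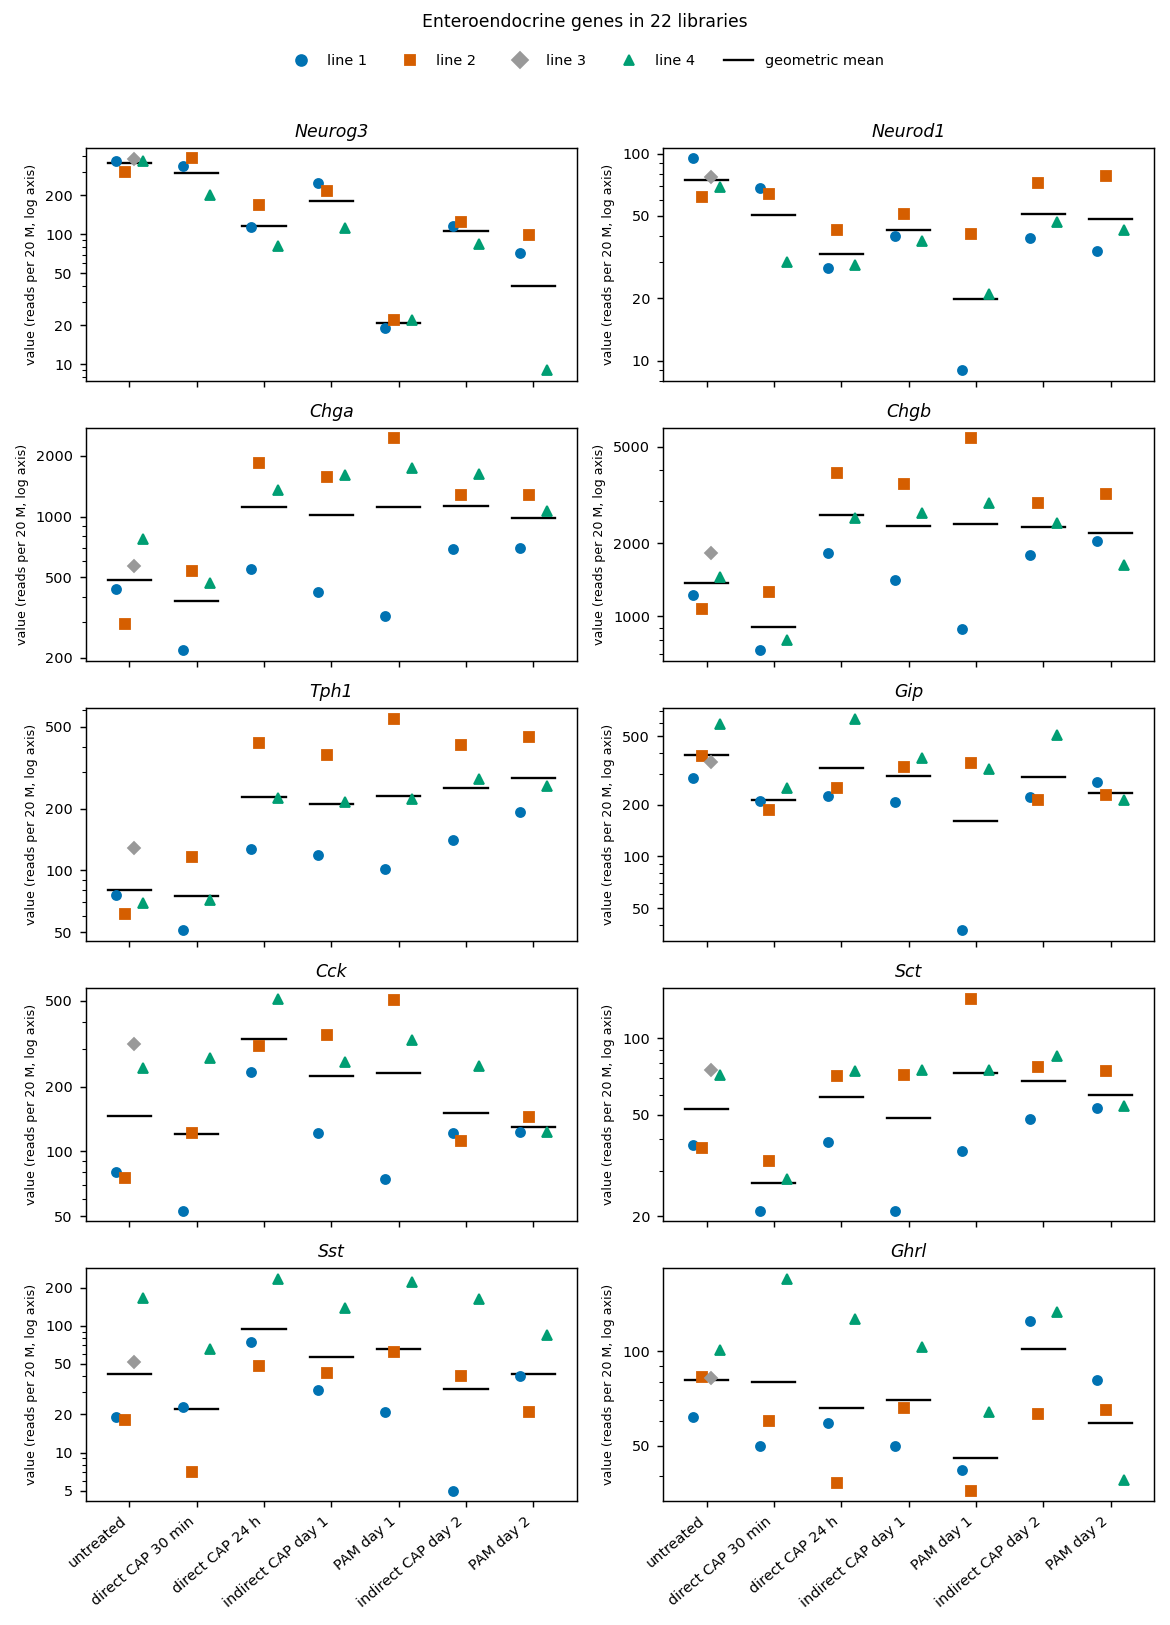
Values of the 10 genes (reads per 20 M, log axis) in the 7 groups, with 1 point per library, shaped and coloured by organoid line, and a bar for the geometric mean of the group. Neurog3 lies at 304 to 383 in untreated organoids and at 19 to 22 after PAM from day 1, while Chga, Chgb and Tph1 reach their highest values in treated libraries of lines 2 and 4.

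Neurog3 (ENSMUSG00000044312, GRCm38 chr10:62133090-62134763, plus strand), the factor that commits progenitors to the endocrine fate, showed the largest change of the set. Its values were 370, 304, 383 and 368 in the untreated libraries of lines 1 to 4. In lines 1, 2 and 4, in that order, they were 337, 386 and 201 after direct CAP for 30 min and 115, 167 and 82 after direct CAP for 24 h. The 24 h libraries all lay below the untreated ones, the 30 min libraries did not. After indirect CAP the values were 248, 216 and 112 from day 1 and 117, 124 and 84 from day 2. After PAM they were 19, 22 and 22 from day 1 and 72, 99 and 9 from day 2. The 2 PAM groups had the lowest means of the 7 groups, and in line 4 the value of 9 stands for about 9 reads. From the mean of 356 ± 35.5 (SD, n = 4) in untreated organoids, Neurog3 fell to 21.0 ± 1.73 (n = 3) with PAM from day 1, a 16.2-fold fall (log2 fold change -4.02, SE 0.15, limma adjusted p = 4.13e-05).

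Neurog3 also fell with direct CAP for 24 h (log2 fold change -1.60, SE 0.23, limma adjusted p = 0.00485), with indirect CAP from day 2 (-1.72, SE 0.16, adjusted p = 0.000149) and with PAM from day 2 (-3.09, SE 0.70, adjusted p = 0.00794). The difference with indirect CAP from day 1 missed the threshold (-0.96, SE 0.25, adjusted p = 0.0321), and with direct CAP for 30 min the difference was -0.26 (SE 0.21, adjusted p = 0.484). With the line as a block, the calls in both PAM from day 1 (adjusted p = 0.00227) and indirect CAP from day 2 (0.00277) held, while those in direct CAP for 24 h (0.0135) and PAM from day 2 (0.0183) were lost. The call in direct CAP for 24 h was also lost without any 1 of the 4 untreated libraries or without the treated library of line 1 (adjusted p from 0.0144 to 0.0215). In PAM from day 2 it was lost without any 1 untreated library or without the treated library of line 1 (adjusted p from 0.0112 to 0.0225), and without the treated library of line 4 the log2 fold change was -2.06 (adjusted p = 0.000301). With both untreated libraries of doubtful line left out, the log2 fold changes were -1.68 (adjusted p = 0.0576) and -3.17 (0.0622) in these groups. Neurog3 lies inside the span of Fam241b (2010107G23Rik in the table), a gene on the opposite strand with values of 214 to 452 over the 22 libraries, and the strand setting of the counting is not given in the sources used here.

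Neurod1 (ENSMUSG00000034701, chr2:79452521-79456751, minus strand), which acts after Neurog3 in endocrine differentiation, was also lower in treated organoids, by less. Untreated lines 1 to 4 had values of 95, 62, 77 and 69. Lines 1, 2 and 4 had 28, 43 and 29 after direct CAP for 24 h, 40, 51 and 38 with indirect CAP from day 1, and 9, 41 and 21 with PAM from day 1. These 9 libraries all lay below the lowest untreated one. With exposure from day 2 the groups overlapped, indirect CAP giving 39, 72 and 47 and PAM 34, 78 and 43, as they did after direct CAP for 30 min (68, 64 and 30). In no treated group did Neurod1 pass the threshold. It came nearest with PAM from day 1 (log2 fold change -1.85, SE 0.44, limma adjusted p = 0.0105, and -2.35 with an adjusted p of 0.00241 without the library of line 2) and with direct CAP for 24 h (-1.17, SE 0.24, adjusted p = 0.0159). Cerkl, on the same strand, overlaps Neurod1 and had values of at most 15.

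PAM and indirect CAP from day 1 were pooled with direct CAP for 24 h, as the groups with an exposure of 24 h from day 1 in the study's methods. Against the 4 untreated libraries, both regulators lay below all untreated values in 9 of 9 libraries. They were 2 of 10 members to do so, where 10.5% of all genes tested did. The log2 fold change was -2.19 (SE 0.65, limma adjusted p = 0.0191) for Neurog3 and -1.27 (SE 0.35, adjusted p = 0.0130) for Neurod1, so neither passed the threshold. The two-sided exact permutation test gave both p = 0.0028, the smallest that 9 against 4 libraries allow. The 9 libraries come from 3 mice, each used 3 times, so this p, and those of limma without the block, treat as independent libraries that are not. No member passed the threshold in this comparison, where 6.34% of all genes tested did. At an unadjusted p under 0.05 it was 5 of 10 members, against 44.1% of all genes, and at an adjusted p under 0.05 without a minimum fold change 3 of 10, against 33.5%. With the line as a block 1 member was called, Tph1, against 7.18% of all genes. That fit uses the doubtful pairing of lines 1 and 2. The call was absent with their untreated libraries left out, which leaves fewer controls and does not test the pairing. Calls appeared without single libraries. Without indirect CAP from day 1 of line 1, Neurog3 (adjusted p = 0.00933) and Tph1 (0.00796) were called. Neurod1 was called without that of line 2 (0.00891) and without PAM from day 1 of line 1 (0.00407), where Tph1 was called too (0.00660). The median log2 fold change of the 10 members was 0.46, against -0.05 over all genes tested.

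**Figure D2:**
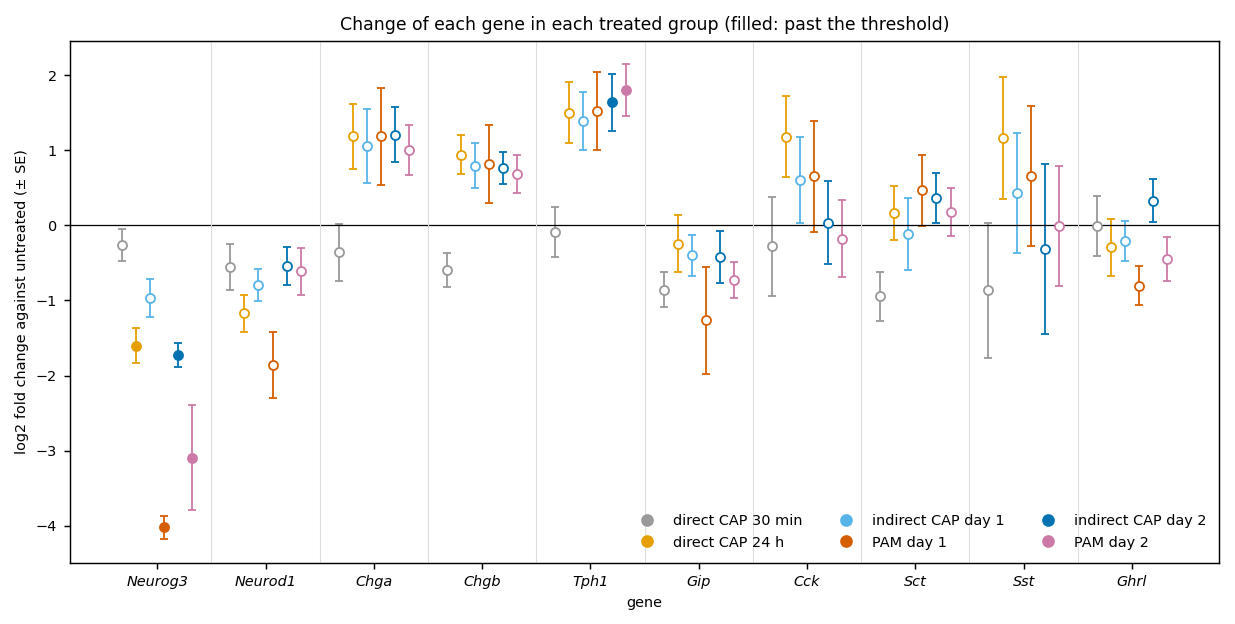
Log2 fold change of each gene in each of the 6 treated groups against the untreated libraries (3 against 4 libraries, bars are ± SE of the limma fit). Filled points are past the threshold: Neurog3 in 4 groups and Tph1 in the 2 groups exposed from day 2.

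Chga and Chgb (chromogranins A and B, the main soluble proteins of dense-core granules; ENSMUSG00000021194, chr12:102554969-102565028, and ENSMUSG00000027350, chr2:132781278-132795079, both plus strand) were higher on average in every treated group except direct CAP for 30 min, unevenly over the lines. Chga was 438, 294, 568 and 776 in untreated lines 1 to 4. In lines 1, 2 and 4 it was 550, 1836 and 1356 with direct CAP for 24 h, 423, 1560 and 1597 with indirect CAP from day 1, and 324, 2434 and 1735 with PAM from day 1. Lines 2 and 4 lay above every untreated library and line 1 within their range in all 3 groups. From day 2 the values were 690, 1272 and 1625 for indirect CAP and 695, 1271 and 1063 for PAM, again with line 1 inside the untreated range. After direct CAP for 30 min they were 218, 537 and 470.

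Chgb had a like pattern. It was 1223, 1075, 1828 and 1450 in untreated lines 1 to 4 and 725, 1258 and 803 in lines 1, 2 and 4 after direct CAP for 30 min. It was 1817, 3881 and 2551 after direct CAP for 24 h. From day 1 indirect CAP had 1406, 3517 and 2677 and PAM 888, 5410 and 2922. From day 2 indirect CAP had 1782, 2920 and 2416 and PAM 2052, 3193 and 1621. The value of 5410 in line 2 is the highest of any member in the series, and that of 888 in line 1 of the same group lies below all untreated libraries. Neither gene passed the threshold against untreated in any group. The log2 fold changes in the 5 groups other than direct CAP for 30 min lay between 1.003 and 1.20 for Chga (limma adjusted p from 0.0279 to 0.175) and between 0.69 and 0.94 for Chgb (0.0184 to 0.241). In PAM from day 1 the library of line 1 decided the outcome. Without it the log2 fold change was 2.07 (SE 0.35, adjusted p = 0.00374) for Chga and 1.54 (SE 0.28, adjusted p = 0.00478) for Chgb, and both were called.

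Tph1 (tryptophan hydroxylase 1, which carries out the rate-limiting step of serotonin synthesis in enterochromaffin cells; ENSMUSG00000040046, chr7:46644641-46672537, minus strand) was the only member called higher against untreated libraries in the main fits. Untreated lines 1 to 4 had values of 76, 61, 128 and 69, and lines 1, 2 and 4 had 51, 116 and 72 after direct CAP for 30 min. From day 2, indirect CAP gave 140, 406 and 278 and PAM gave 193, 447 and 256, all 6 above every untreated library. Values were 127, 418 and 224 after direct CAP for 24 h, and from day 1 indirect CAP had 119, 365 and 215 and PAM 101, 548 and 223. In these 3 groups line 1 lay below the highest untreated value, 128, and lines 2 and 4 above it. The rise was 3.11-fold with indirect CAP from day 2 (log2 fold change 1.64, SE 0.38, limma adjusted p = 0.00874) and 3.48-fold with PAM from day 2 (1.80, SE 0.34, adjusted p = 0.00387). Direct CAP for 24 h and the other 2 groups from day 1 gave 1.39 to 1.52 with adjusted p from 0.0370 to 0.0436. Over their 9 libraries the log2 fold change was 1.47 (SE 0.40, adjusted p = 0.0130), with a two-sided exact permutation p of 0.0112 and 6 of 9 libraries above all untreated ones. With the line as a block it was 1.69 and was called (adjusted p = 0.00159). That fit rests on the doubtful pairing of lines 1 and 2. With their untreated libraries left out, Tph1 was not called over the 9 libraries, with or without the block. This leaves fewer controls and does not test the pairing. Over all settings its limma adjusted p reached up to 0.154.

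Calls of Tph1 from day 2 were sensitive to single libraries. With indirect CAP the call was lost with the line as a block (adjusted p = 0.0119), and on leaving out untreated line 1, 2 or 4 or treated line 2 or 4 (0.0215 to 0.0309). With PAM the block kept it (0.00673), while leaving out untreated line 1, 2 or 4 or treated line 2 gave adjusted p from 0.0112 to 0.0131. With both untreated libraries of doubtful line left out, the log2 fold changes were 1.41 (adjusted p = 0.0735) and 1.57 (0.0488). In PAM from day 1, Tph1 was called (2.11, adjusted p = 0.00637) without the library of line 1.

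The 5 peptide hormone genes gave no call against the untreated libraries in any of the 6 groups or over the 9 libraries from day 1. Gip, the incretin of K cells (ENSMUSG00000014351, chr11:96024545-96030831, plus strand), had untreated values of 285, 383, 354 and 594. After direct CAP for 30 min it was 211, 187 and 249 in lines 1, 2 and 4, and with PAM from day 2 it was 270, 228 and 212, below all untreated libraries in both groups (log2 fold change -0.86, SE 0.23, limma adjusted p = 0.112, and -0.72, SE 0.24, adjusted p = 0.0368). The other 4 groups overlapped the untreated range. The lowest value, 37, came from line 1 with PAM from day 1, where lines 2 and 4 had 348 and 323, and without that library the log2 fold change moved from -1.26 to -0.21.

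Cck (cholecystokinin of I cells; ENSMUSG00000032532, chr9:121489824-121495694, minus strand) had untreated values of 80 and 75 in lines 1 and 2 and 316 and 243 in lines 3 and 4. The values with direct CAP for 24 h, 234, 310 and 512 in lines 1, 2 and 4, overlapped this range (log2 fold change 1.18, SE 0.54, limma adjusted p = 0.167). With the line as a block the same group gave 1.55 and a call (adjusted p = 0.00930), the only member called in that fit, against 2.02% of all genes tested. That fit rests on the doubtful pairing of lines 1 and 2. With their untreated libraries left out, the log2 fold change in this group was 0.27 (adjusted p = 0.697, no block), and over the 9 libraries from day 1 it was -0.10 instead of 0.81. Leaving them out does not test the pairing, since it keeps only untreated lines 3 and 4, with the higher values. In the other treated groups Cck lay between 53 and 503.

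Sct (secretin of S cells; ENSMUSG00000038580, chr7:141278330-141279133, minus strand) lay at 38, 37, 75 and 72 in untreated lines 1 to 4 and at 21, 33 and 28 in lines 1, 2 and 4 after direct CAP for 30 min. This was below every untreated library (log2 fold change -0.94, SE 0.33, limma adjusted p = 0.135). In the other groups it ranged from 21 to 143, overlapping the untreated values, and the log2 fold changes lay between -0.11 and 0.47. Sst (somatostatin of D cells; ENSMUSG00000004366, chr16:23889573-23890958, minus strand) varied more by line than by group. Line 4 was the highest in each of the 7 groups, from 66 to 234, against 5 to 75 in lines 1 and 2. The SE of its log2 fold change against untreated was 0.80 to 1.13 in the 6 groups, the widest of the 5 hormones.

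Ghrl (ghrelin of X cells; ENSMUSG00000064177, chr6:113716119-113719880, minus strand) had untreated values of 62, 83, 82 and 101. Its lowest group was PAM from day 1, at 42, 36 and 64 in lines 1, 2 and 4 (log2 fold change -0.80, SE 0.26, limma adjusted p = 0.0345), and its highest indirect CAP from day 2, at 125, 63 and 133 (0.33, SE 0.29, adjusted p = 0.387). Gm44033 and Gm26982 overlap Ghrl on the opposite strand. Gm44033 had values of 19 to 102 and followed Ghrl closely over the 22 libraries (r = 0.98), and without a stated strand setting reads of the pair cannot be told apart.

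Group by group against untreated, members past the threshold numbered 0 of 10 with direct CAP for 30 min, where 0.00564% of all genes tested were past it, and 3 members reached an unadjusted p under 0.05 (24.9% of all genes). The block gave 0 of 10, and 0% of all genes. Gip and Sct, 2 of 10, lay below all untreated libraries, against 11.2% of all genes. With direct CAP for 24 h it was 1 of 10 (Neurog3) against 2.17%, and 2 of 10 (Neurog3 and Neurod1) lay below all untreated libraries against 19.1%. With indirect CAP from day 1 it was 0 of 10 against 1.31%, by limma, and 0 of 10 with the block against 1.81%. There 4 members had an unadjusted p under 0.05 (38.6% of all genes), and 2 of 10 lay below all untreated libraries against 17.7%.

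With PAM from day 1 it was 1 of 10 (Neurog3) against 10.2%, the same with the block (7.81% of all genes), and 2 of 10 lay below all untreated libraries against 29.7%. With indirect CAP from day 2 it was 2 of 10 (Neurog3 and Tph1) against 11.9%, with the block 1 (Neurog3) against 10.6%. Here 1 of 10 lay above all untreated libraries against 22.7%, and 1 of 10 below against 25.8%. With PAM from day 2 it was 2 of 10, the same pair, against 17.3%, with the block 1 (Tph1) against 14.9%. Here 1 of 10 lay above against 20.7%, and 2 of 10 (Neurog3 and Gip) below against 32.6%. At an adjusted p under 0.05 without a minimum fold change, members numbered 4 with direct CAP for 24 h (17.3% of all genes), 3 with indirect CAP from day 1 (20.6%), 4 with PAM from day 1 (41.8%), and from day 2 there were 4 in each group (indirect CAP 43.8%, PAM 47.6%). With PAM from day 1 and with both groups from day 2 the share of members was near that of all genes, and is no result about the members. Ordered by mean, neighbouring groups overlapped in their ranges for all members, except Sct, whose direct CAP for 30 min lay below its neighbour, the untreated group. These comparisons share the 4 untreated libraries, and an exact permutation test of 3 against 4 libraries cannot go below p = 0.0571.

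The length of exposure was compared within direct CAP, 24 h against 30 min, in which each treated line serves as its own control and no untreated library enters. Neurog3 was lower at 24 h in 3 of 3 lines, with log2 fold change -1.34 (SE 0.33). Chga at 1.54 (SE 0.49), Chgb at 1.54 (SE 0.30), Tph1 at 1.59 (SE 0.46), Cck at 1.46 (SE 0.56), Sct at 1.11 (SE 0.33) and Sst at 2.03 (SE 0.84) were higher in 3 of 3 lines. For Chga this meant 218 to 550 in line 1, 537 to 1836 in line 2 and 470 to 1356 in line 4. Sst went from 23 to 75, 7 to 48 and 66 to 234. Without the block no gene in the table passed the threshold in this comparison (0% of 17668), and 7 of 10 members had an unadjusted p under 0.05 (21.4% of all genes). Of the members, 4 lay entirely above the 30 min libraries (7.33% of all genes) and 1 entirely below (20.6%).

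With the line as a block, which the treated libraries bear out, 5 of 10 members passed the threshold, where 1.13% of all genes tested did. They were Neurog3 (limma adjusted p = 0.00459), Chga (0.00130), Chgb (0.000964), Sst (0.00709) and Tph1 (0.00443). Cck (0.0108) and Sct (0.0447) did not pass, nor did Neurod1 (-0.62, adjusted p = 0.210), Gip (0.62, 0.122) and Ghrl (-0.28, 0.479). The median log2 fold change of the members was 1.28, against -0.09 over all genes tested. Whether the 30 min libraries were collected at that time or at the later endpoint of the other groups is not clear from the sources used here, so length of exposure and time of collection cannot be told apart.

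**Figure D3:**
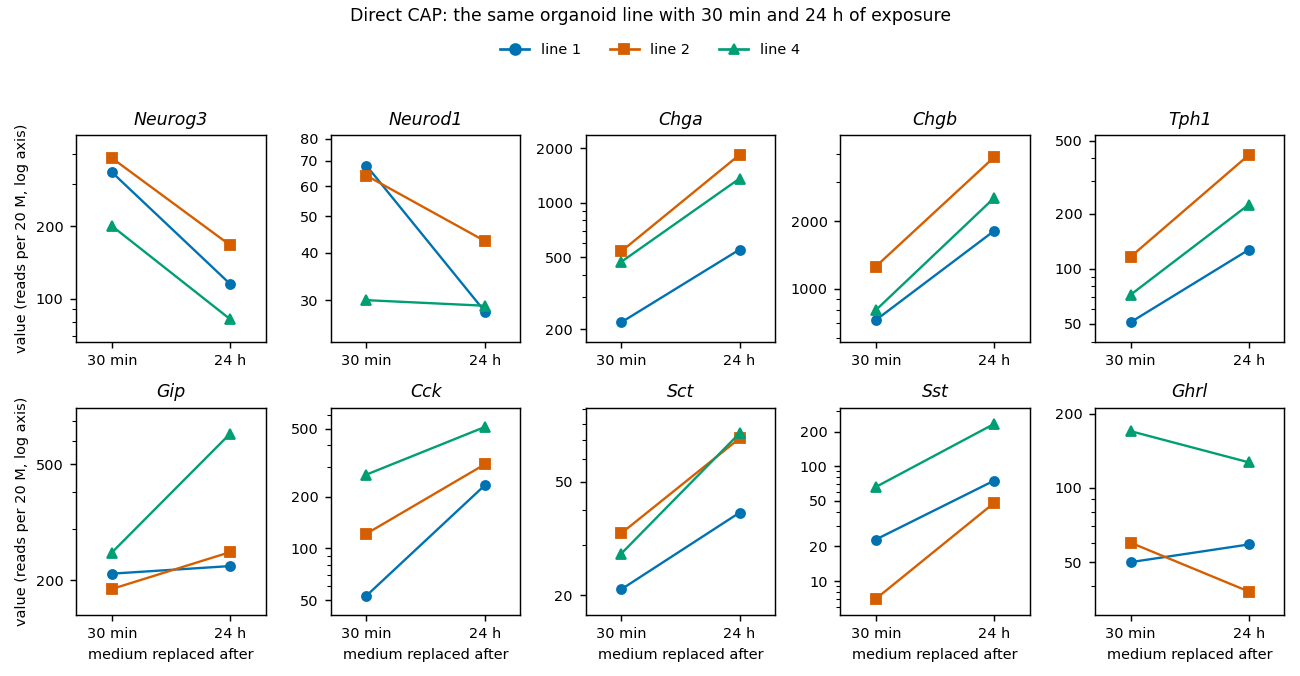
Values (reads per 20 M, log axis) of the 10 genes in lines 1, 2 and 4 after direct CAP with the medium changed at 30 min or 24 h, with a line joining the 2 libraries of each organoid line. Neurog3 is lower and Chga, Chgb, Tph1, Cck, Sct and Sst are higher at 24 h in all 3 lines, Neurod1 is lower and Gip higher in all 3 lines as well, by unequal amounts, and Ghrl is mixed.

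The way of application was compared among groups treated from day 1, whose exposure was 24 h in each by the study's methods but 0.5 h for indirect CAP and PAM by the labels. Neurog3 was lower with PAM from day 1 than with direct CAP for 24 h in 3 of 3 lines (19 against 115, 22 against 167 and 22 against 82), with log2 fold change -2.42 (SE 0.30, limma adjusted p = 0.0396, and 0.00439 with the line as a block, which is a call). It was the single member below all libraries of the other group, as were 10.5% of all genes, and the single member called with the block, against 0.340% of all genes. Without the block 0 of 10 members and 0% of all genes passed, 1 member (10.4% of all genes) had an unadjusted p under 0.05, and 1 (0.258%) an adjusted p under 0.05. In a comparison added after the values were seen, Neurog3 was also lower with PAM than with indirect CAP from day 1 in 3 of 3 lines (-3.06, SE 0.32, adjusted p = 0.165, and 0.0216 with the block), where 20.0% of all genes lay below, 0% passed with or without the block, and 1 member (21.7% of all genes) had an unadjusted p under 0.05. None of the other 9 members was called in either comparison, with or without the block. Their log2 differences from direct CAP for 24 h lay between -1.02 (Gip, SE 0.85) and 0.30 (Sct, SE 0.50).

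Indirect CAP from day 1, set against 24 h of direct CAP, had 0 of 10 members and 0% of all genes past the threshold by limma, with 0 members (6.95% of all genes) at an unadjusted p under 0.05 and 0 members (0%) with the block. Exposure from day 2 against exposure from day 1, in 6 against 6 libraries with the application as a covariate, gave 0 of 10 members against 3.92% of all genes, 0 members at an unadjusted p under 0.05 (39.0% of all genes) and 0 with the block (6.06%). The nearest was Neurod1, at 0.75 (SE 0.35, adjusted p = 0.141, and 0.0307 with the block) higher from day 2. For Neurog3 the difference was 0.08 with an SE of 0.52, an average over unlike movements. With indirect CAP its values were lower from day 2 in 3 of 3 lines, and with PAM they were higher in 2 of 3. Whether the 2 applications differ in this was not tested. By the study's methods, start of exposure, time in fresh medium and age of the treated medium cannot be told apart in this comparison.

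The members were then set beside other genes of the enteroendocrine program. In the upstream list of secretory fate and Notch genes, 6 of 6 were tested and 6 were lower in the fit over the 9 libraries from day 1 (6 at an unadjusted p under 0.05, against 44.1% of all genes), with a median log2 fold change of -0.60 against -0.05 over all genes. Of these 1 passed the threshold (6.34% of all genes did), Gfi1, a repressor that acts after Atoh1 (117 ± 25.5 to 52.0 ± 20.9, log2 fold change -1.24, SE 0.31, limma adjusted p = 0.00796, and 0.0134 with the line as a block, which is no call). With PAM from day 2, 3 of 6 fell, where 17.3% of all genes were called: Dll4, a Notch ligand (-2.96, SE 0.47, adjusted p = 0.00178), Gfi1 (-2.51, SE 0.31, 0.000682) and Atoh1, the gateway of the secretory fates (-2.50, SE 0.47, 0.00357). Dll1, another Notch ligand, was on the other side, with means of 1844 in untreated organoids and 2403 in PAM from day 2 (0.38, SE 0.10, adjusted p = 0.0178, not past the threshold).

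Of 18 enteroendocrine transcription factors, 17 were tested over the 9 libraries from day 1 and 1 passed, Sox4, an early factor of endocrine progenitors, which fell from 4981 ± 1096 to 1816 ± 836, against 6.34% of all genes called (log2 fold change -1.57, SE 0.32, limma adjusted p = 0.00237). In all 14 were lower and 3 higher in the fit, where the median log2 fold change over all genes tested was -0.05. PAM from day 1 gave 6 lower calls among 16 tested, against 10.2% of all genes, of which 1 (Sox4) held with the line as a block. PAM from day 2 gave 4 of 16, against 17.3%, namely Sox4 (-2.85, SE 0.26, adjusted p = 0.000338), St18 (-2.46, SE 0.55, 0.00768, and 0.0108 with the block, no call), Mnx1 (-2.30, SE 0.41, 0.00296) and Runx1t1 (-2.16, SE 0.28, 0.000758). No factor of the list was called higher in either. One of the 3 that were higher was Lmx1a, a factor of enterochromaffin cells, named here for its likeness to Tph1. Its means were 15.0 in untreated organoids and 34.3 over the 9 libraries (1.13, adjusted p = 0.0353, and 0.00658 with the line as a block).

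Among granule, processing and exocytosis genes the calls were higher, without a shared direction of the list. Over the 9 libraries from day 1, 3 of 18 tested rose and 0 fell, against 6.34% of all genes called: Ptprn, a membrane protein of dense-core granules (20.5 ± 11.9 to 133 ± 72.6, log2 fold change 2.60, SE 0.48, limma adjusted p = 0.00152), Vgf, a granin (7.50 ± 5.26 to 25.0 ± 11.4, 1.68, SE 0.40, 0.00585), and Cpe, carboxypeptidase E of prohormone processing (214 ± 31.7 to 736 ± 397, 1.57, SE 0.40, 0.00820, and 0.0130 with the block, no call). With PAM from day 2, 4 of 17 rose, near the 17.3% of all genes called: Vgf (3.46, SE 0.49, adjusted p = 0.00111), Ptprn (3.40, SE 0.51, 0.00134), and the fusion proteins Snap25 (2.86, SE 0.59, 0.00534) and Stx1a (1.11, SE 0.19, 0.00238, and 0.0135 with the block, no call). The list's median was 0.33 over the 9 libraries and -0.02 with PAM from day 2, where 9 of 17 were lower in the fit. Among these, named after their values were seen, were Cplx2 (-2.05, adjusted p = 0.0179), Rab3c (-1.91, 0.0310), Ptprn2 (-1.52, 0.0257) and Cadps (-1.07, 0.0358), vesicle and fusion genes that did not pass the threshold. Syp, a vesicle protein, and the granin Scg5 had means of 30.0 and 30.3 untreated and 22.3 and 27.7 over the 9 libraries.

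Other hormone genes were sparse. Of 10, 3 stayed under 10 in all libraries, 6 were tested over the 9 libraries from day 1, and 0 passed by limma, against 6.34% of all genes. At an unadjusted p under 0.05, 2 were higher and 1 lower, against 44.1% of all genes. With the line as a block 2 were called, against 7.18% of all genes, named here after their values were seen: Tac1, which enterochromaffin cells express (119.8 to 288, log2 fold change 1.16, adjusted p = 0.0352, and 0.00269 with the block), and Nts, neurotensin (29.8 to 134, 2.74, adjusted p = 0.0124, and 0.00144 with the block). Both calls use the doubtful line labels of untreated lines 1 and 2, and the SD of untreated Nts was 29.9. Iapp fell with PAM from day 2, from 10.5 to 3.33 (-1.39, SE 0.33, adjusted p = 0.00965, and 0.0318 with the block, no call). Of 11 nutrient sensing and excitability genes, 6 stayed under 10 in all libraries, 4 were tested and 0 passed over the 9 libraries. At an unadjusted p under 0.05 it was 1 (44.1% of all genes), and with the block 1 was called (7.18%).

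**Figure D4:**
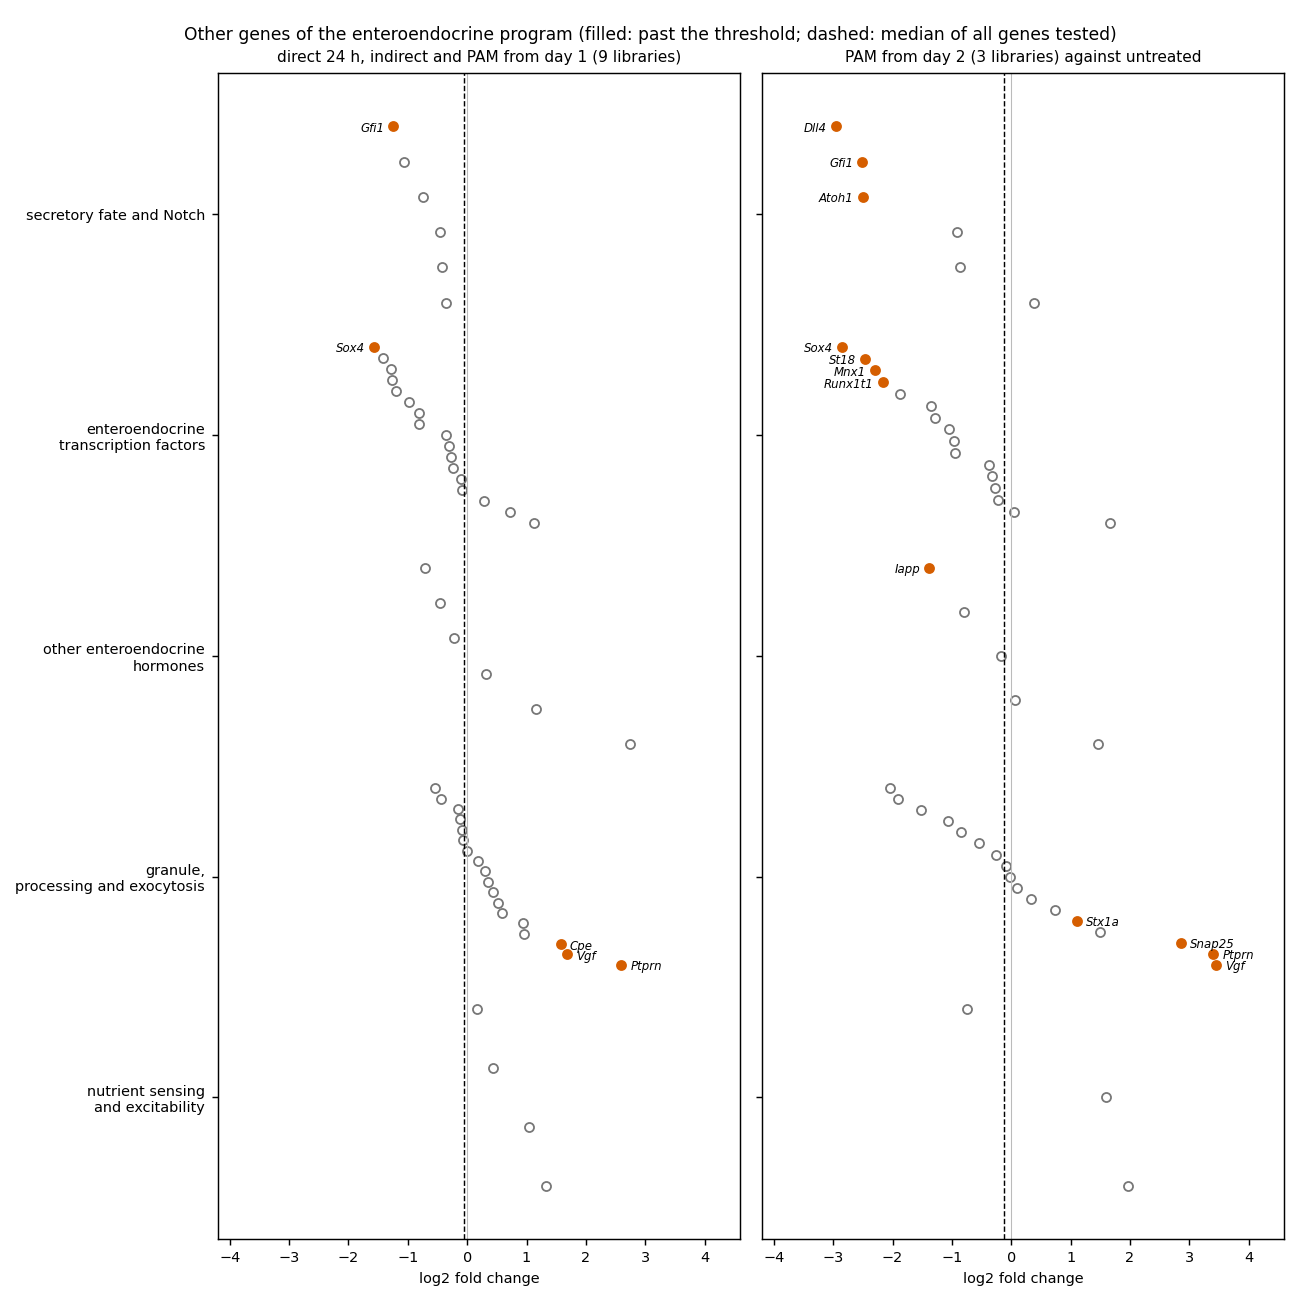
Log2 fold change of the tested genes of 5 lists against untreated, for the 9 libraries of direct CAP for 24 h and of PAM and indirect CAP from day 1 (left) and PAM from day 2 (right), each list sorted by value. Filled, named points are past the threshold, open points are not, and the dashed line is the median of all genes tested. Called points of the first 3 lists are lower and those of the granule list are higher.

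Over the 22 libraries the members fell into groups by pattern, given as a description since libraries share lines, controls and treatments. Chga, Chgb and Tph1 ran together, with Pearson's r of 0.92 for Chga and Chgb (Spearman's rho 0.91), 0.92 for Chgb and Tph1 (0.92) and 0.89 for Chga and Tph1 (0.86). Sct joined them (0.87 with Chga, rho 0.85). Neurog3 and Neurod1 had r = 0.63 (rho 0.63), and Neurog3 had negative values with Tph1 (-0.49, rho -0.54) and Chga (-0.43, rho -0.47). Over all 22 libraries Gip and Ghrl were apart from Chga, Chgb and Tph1, with r between -0.25 and 0.43. After group means were removed, the r of Chgb and Tph1 was 0.93 and that of Neurog3 and Tph1 0.17. Gip was then no longer apart, at 0.73 with Chga, 0.64 with Chgb and 0.44 with Tph1, while Ghrl stayed between -0.18 and 0.18. Neurod1 went from 0.05 to 0.77 with Chgb and from -0.03 to 0.75 with Tph1.

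**Figure D5:**
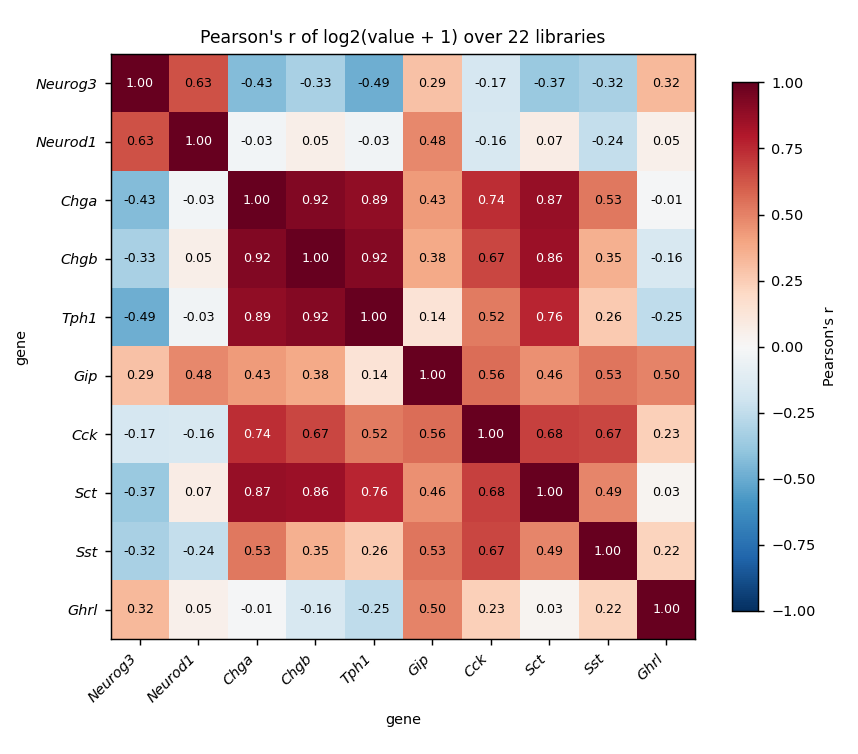
Pearson's r of log2(value + 1) between each pair of the 10 genes over 22 libraries, from -1 (blue) to 1 (red). Chga, Chgb, Tph1 and Sct form a block between 0.76 and 0.92, Neurog3 and Neurod1 pair at 0.63, and Ghrl stays between -0.25 and 0.50 with every other gene.

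Among the 19370 genes that reached 10 in 3 libraries or more, those nearest in pattern were named by r over the 22 libraries. For Tph1 they were Lmx1a (0.94), Chgb (0.92) and Cdkn2b (0.91), and for Chga they were Chgb (0.92), the prohormone convertase gene Pcsk1 (0.91) and Tph1 (0.89). Chgb had Lmx1a (0.90) next after Chga and Tph1. Neurod1 lay nearest to Reg3g (0.93) and to the endocrine factors Insm1 (0.93) and Nkx2-2 (0.90), Neurog3 to 9130208D14Rik (0.96), Ifitm3 (0.95) and Esrrg (0.95). For Cck the nearest was the granin Scg2 (0.89), ahead of Mospd1 (0.86) and Fuca1 (0.85), and for Sct it was Pcsk1 (0.92), ahead of Chga (0.87) and Chgb (0.86). Gip lay nearest to Atp6ap2 (0.86), Gstm5 (0.86) and Nudt16 (0.77), Sst to Hebp1 (0.88), Gm45076 (0.86) and Mfsd9 (0.86), and Ghrl, after Gm44033, to Cdc14b (0.86) and Il15ra (0.76).

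Some markers of other cells moved as well. The summed value of 8 enterocyte markers was 110709 to 130413 in untreated libraries and 145283 to 192625 with PAM from day 2. That of 7 goblet cell markers was 81860 to 140927 and 19170 to 50007 in the same groups. In all other groups both sums overlapped the untreated range. Each sum follows its largest markers. Over both groups from day 2, Alpi (untreated mean 26969 to 64608) and Apoa4 (17779 to 22024) were higher. Sis was about the same, and Apoa1 (14258 to 5101), Fabp1, Fabp2, Anpep and Rbp2 were lower. Among goblet markers Clca1 was called higher with PAM from day 1 (3362 to 14308). Its log2 fold change was 2.03 (limma adjusted p = 0.00215, and 0.0147 with the block, no call). Agr2 and Spink4 were lower in that fit. The summed value of 7 stem cell markers was 55460 to 65539 in untreated libraries and 9665 to 35849 in the 15 treated libraries other than those of direct CAP for 30 min. Of these markers 5 of 7 were called lower over the 9 libraries from day 1, where 6.34% of all genes were called in either direction. With PAM from day 2 it was 6 of 7, against 17.3%. The summed value of 7 Paneth cell markers was 30027 to 41624 in untreated and 4371 to 28634 in those 15 libraries, with 3 of 7 called lower over the 9 (6.34% of all genes called). Of 8 tuft cell markers 3 were tested. Avil was called higher over the 9 libraries (31.8 to 234), Pou2f3 fell with PAM from day 2 (from a mean of 34.8, log2 fold change -1.82, limma adjusted p = 0.00883), Dclk1 was at a mean of 11.3 in untreated and 0.889 over the 9, and Gnat3 was at 0 throughout. Trpm5 had means of 62.8 in untreated organoids and 66.7 with PAM from day 1. Among leukocyte markers Cd68 was called higher over the 9 libraries (21.5 to 56.4, 1.35, adjusted p = 0.000427) and with both PAM groups, that from day 2 not with the block (0.0240). Lyz2 went the other way with PAM from day 1 (143.5 to 47.7, log2 fold change -1.87, limma adjusted p = 0.0119, no call). Csf1r had means of 261 untreated and 267 in that group. Neurons also express granule and fusion genes such as Vgf and Snap25. Of 8 neuronal markers 4 stayed under 10 in all libraries and the sum was 41 to 61 in untreated and 16 to 92 in the 15 libraries. Where Vgf and Snap25 rose, with PAM from day 2, Nefm rose from 11.3 to 42.0 (log2 fold change 1.78, adjusted p = 0.00274) and Tubb3 fell from 34.8 to 4.67 (adjusted p = 0.000618). Over the 9 libraries Tubb3 fell too (-1.48, adjusted p = 0.00437, and 0.0192 with the line as a block, no call). The fibroblast sum was at most 17 and the endothelial sum at most 29 in any library. The part of these cells in the values of the members was not tested.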

How the data were processed

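RNA was measured in 22 libraries of mouse duodenal organoids. Per the labels and the study's methods, the authors trimmed paired reads with Trimmomatic 0.36, aligned them with STAR 2.5.3a to GRCm38 and counted them per Ensembl gene with HTSeq 0.9.1. The deposited table holds scores named CP20M, gene counts the authors scaled to 20 M per library and rounded up (column sums 20007540 to 20016513). The values were not divided by length, although the study describes them as per kilobase. They are not raw counts, so no count model was used. Scaling and rounding up affect low values most.

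Genes that reached 10 in 3 or more of the compared libraries were fitted with limma 3.58.1 (R 4.3.3) on log2(value + 1), with a trend and Benjamini-Hochberg adjustment over all genes tested, using only the groups compared. A gene was called at an adjusted p under 0.01 and an absolute log2 fold change of 1 or more. The fit was tested on simulated data. As alternatives the values were quantile normalized, the pseudocount was set to 10, the filter was dropped, all 7 groups were fitted together, the call was set at an adjusted p under 0.05 whatever the fold, the line was added as a replicate block, and each library was left out in turn. Lines come from separate mice, so for 1 group against another without the block, p-values measure the spread between lines. Fits that pool groups use a line repeatedly, and their p-values without the block treat its libraries as independent. With the block, p-values measure the spread left within lines. No pair of replicate libraries (24 pairs) agreed within sampling noise. The same line paired the treated libraries (45 of 45 pairs over 0.1, median r 0.54 over all groups). A line is 1 mouse, and mouse, passage and culture cannot be told apart.

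Gene positions and exonic lengths came from GENCODE vM21 (GRCm38), in which 52403 of 52636 genes matched. Promoters came from RefSeq (GRCm38.p6). The members, gene lists and tests were chosen with earlier results of these data known. From the other lists, up to 4 genes past the threshold were named by the size of their change over the 9 libraries from day 1 or with PAM from day 2, and for each member the 3 genes with the highest r. Other names are said to be chosen after their values were seen. Figures were drawn with matplotlib 3.10.9.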

Additional observations from a re-analysis of the deposited data

Results flagged for a closer look

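Among treated groups of the same lines, 6 differences passed the threshold of the limma test of the difference with the line as a block, and none did without it. With direct CAP, 24 h against 30 min, they were Neurog3 (log2 fold change -1.34), Chga (1.54), Chgb (1.54), Sst (2.03) and Tph1 (1.59). The sixth was Neurog3 with PAM from day 1 against direct CAP for 24 h (-2.42). Each had the same direction in 3 of 3 lines. In the untreated group of 4, the only one large enough for Dixon's test, no member had a library apart from the others.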

How the results depend on the processing

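Counts of members past the threshold were small and moved with most settings. Under the replicate block by line the count went from 0 to 1 over the 9 libraries from day 1, from 2 to 1 in both groups from day 2, from 0 to 1 for PAM from day 1 against direct CAP for 24 h, and from 0 to 5 for direct CAP, 24 h against 30 min. The block left the number unchanged in the other comparisons, although with direct CAP for 24 h the member called was Cck in place of Neurog3. A pseudocount of 10 gave 1 over the 9 libraries and 2 with PAM from day 1. With all 7 groups in 1 fit the counts were 2 over the 9 libraries, 0 with direct CAP for 24 h, 2 with PAM from day 1 and 0 with indirect CAP from day 2. Calls at an adjusted p under 0.05 whatever the fold numbered 3 over the 9 libraries and with indirect CAP from day 1, 4 with direct CAP for 24 h, with PAM from day 1 and with both groups from day 2, and 1 for PAM from day 1 against direct CAP for 24 h. With no filter both groups from day 2 had 1. With 1 library left out the counts ranged from 0 to 2 over the 9 libraries, from 0 to 1 with direct CAP for 24 h, from 1 to 4 with PAM from day 1, from 1 to 2 with indirect CAP from day 2 and from 0 to 2 with PAM from day 2, and stayed at 0 in the other comparisons fixed at the start (none was left out for PAM against indirect CAP from day 1). The causes were not tested.

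With the untreated libraries of lines 1 and 2 both left out, chosen after seeing the data, the counts were 0 with direct CAP for 24 h, 1 with indirect CAP from day 2 and 0 with PAM from day 2, with 2 fewer libraries in the fit. The log2 fold change then turned to -0.10 for Cck, -0.30 for Sct and -0.38 for Sst over the 9 libraries from day 1, and to -0.31 for Cck with indirect CAP from day 1, none of them called in either fit. For Gip, PAM from day 1 against direct CAP for 24 h ranged from -1.57 to 0.027 with 1 library left out, the latter without PAM from day 1 of line 1. Of 57 fold changes given per member and comparison, 57 kept direction and call under quantile normalization, 55 with no filter, 55 with a pseudocount of 10, 51 with all groups in 1 fit and 46 with the block. Values under 10 rest on about 10 reads or fewer.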
